A study of Mus musculus with 10 samples.

Results

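Imprinted genes were followed by culture medium, cell class and genomic locus in mouse intestinal organoids. The 35 genes were chosen by name as known imprinted genes, and each is described by its UMIs (unique molecular identifiers, which tag single transcript molecules). Of these genes, 34 were found by symbol among the 31053 genes of the libraries, and Rian was not analysed here. Single-cell RNA libraries by the 10x 3′ method were available from organoids of the small intestine in 3 media and from colonic crypts. Conventional medium with R-Spondin 1, Noggin and EGF gave the 3 libraries of ENR-organoids. The 3 libraries of Hyper-organoids came from medium with VPA, which inhibits histone deacetylases, EPZ6438, which inhibits the Polycomb methyltransferase EZH2, LDN193189, Pexmetinib, GSK-3 Inhibitor XV, FGF2, EGF and conditioned medium containing R-Spondin 1. The -VE-organoids (2 libraries) received the Hyper medium with both VPA and EPZ6438 omitted, so that the comparison of Hyper- with -VE-organoids concerns these 2 compounds together and not either one alone. The sample codes in the labels begin with 2 for replicate 1, 6 for replicate 2 and C for replicate 3, called culture series here. Whether series 2 and 6 were separate cultures or the same culture at different passages is not given in the labels. The ENR-organoids were at passage 2, 7 and 3, the -VE-organoids at passage 1 and 6, and the Hyper-organoids at passage 1, 6 and 3. Series C started from primary crypts, and the -VE- and Hyper-organoids of the other series were made from ENR-organoids. Colonic crypts of normal mice and of mice given dextran sulfate sodium (DSS), which injures the colonic epithelium, gave 1 library each. The labels do not say whether replicates came from separate animals, so a p-value measures the spread between these libraries.

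An imprinted gene is transcribed mainly from the copy inherited from one parent, in most cases because a control region was methylated in only one of the parental germ lines. The genes lie in clusters in which a control region and often a long noncoding RNA act on several neighbours, and many of them regulate growth of the fetus and placenta and fall silent in adult tissues. In somatic cells the silent copy can also carry histone H3 lysine 27 methylation, the mark that EZH2 writes. The libraries hold no allele information, so a rise can come from either parental copy.

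The organoid libraries held 1983 to 4293 kept cells, 89124015 to 170019527 UMIs and a median of 38173.5 to 50651.5 UMIs per cell. The colonic libraries held 1132 and 1933 kept cells with 19906845 and 32397122 UMIs. Between 5 and 26 kept barcodes per library also occurred in another library. The organoid libraries were epithelial by their markers: the 5 epithelial markers summed to 3499 to 4316 CPM (counts per 1e6 UMIs, here over the plain total of a library) in each of them. The 8 stromal markers summed to 0.381 to 0.578 CPM in ENR-, 0.288 to 0.410 in -VE- and 1.15 to 1.18 in Hyper-organoids. In the Hyper-organoids Col1a1 had 31 to 69 UMIs per library, beside 2 to 8 in the other media. Des had 25 to 43 UMIs beside 0 or 1, and Pdgfra 9 to 37 beside 0 to 4, while the fibroblast genes Col3a1 and Lum had 0 to 3 and 0 or 1. Pdgfrb did not rise, with 26 to 34 UMIs per Hyper library beside 28 to 60 in the other media. The 5 markers of enteric nerve and glia summed to 1.73 to 2.30 CPM in ENR-, 1.49 and 1.89 in -VE- and 2.37 to 3.14 in Hyper-organoids. Of these the neuronal gene Elavl4 had 100 to 247 UMIs in Hyper-organoids beside 7 to 21, while Sox10 had 0 to 3. The part of these transcripts in the results was not tested. CPM of single genes over whole organoid libraries are given over totals scaled by TMM, edgeR's correction for library composition.

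In Hyper-organoids 14 of the 28 imprinted genes that could be tested rose against ENR-organoids and 0 fell, at an adjusted p under 0.05 and a change of at least 2-fold. Of all genes tested, 18.2% were called higher in the same comparison. Against -VE-organoids 13 of 28 rose and 0 fell, beside 16.1% of all genes called higher. The 2 comparisons share the Hyper libraries, and 12 of the 28 genes were called higher in both, beside 14.3% of all genes: H19, Peg3, Usp29, Peg10, Sgce, Asb4, Mest, Plagl1, Grb10, Mkrn3, Peg12 and Slc38a4. Meg3 and Phlda2 were called against ENR- and not against -VE-organoids, and Cdkn1c against -VE- and not against ENR-organoids. The difference between the comparisons was not tested. The median log2 fold change of the tested imprinted genes was 1.48 against ENR- and 1.81 against -VE-organoids, beside -0.0073 and 0.014 for all genes tested. Genes textbooks list as expressed from the paternal copy gave 9 calls of 18 tested against ENR-organoids, and those from the maternal copy 5 of 10. In the comparison of -VE- with ENR-organoids 1 of 28 fell, Asb4, and 0 rose, beside 2.55% of all genes called in either direction. Without the adjustment 5 of the 28 passed p under 0.05 there, beside 24% of all genes. The filter on low counts removed Igf2, Mirg, Dlk1, Rtl1, Zim1 and Magel2. A gene that passed it only through its Hyper libraries had to differ, so the shares of tested genes describe the genes that passed and not all 35.

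**Figure D1:**
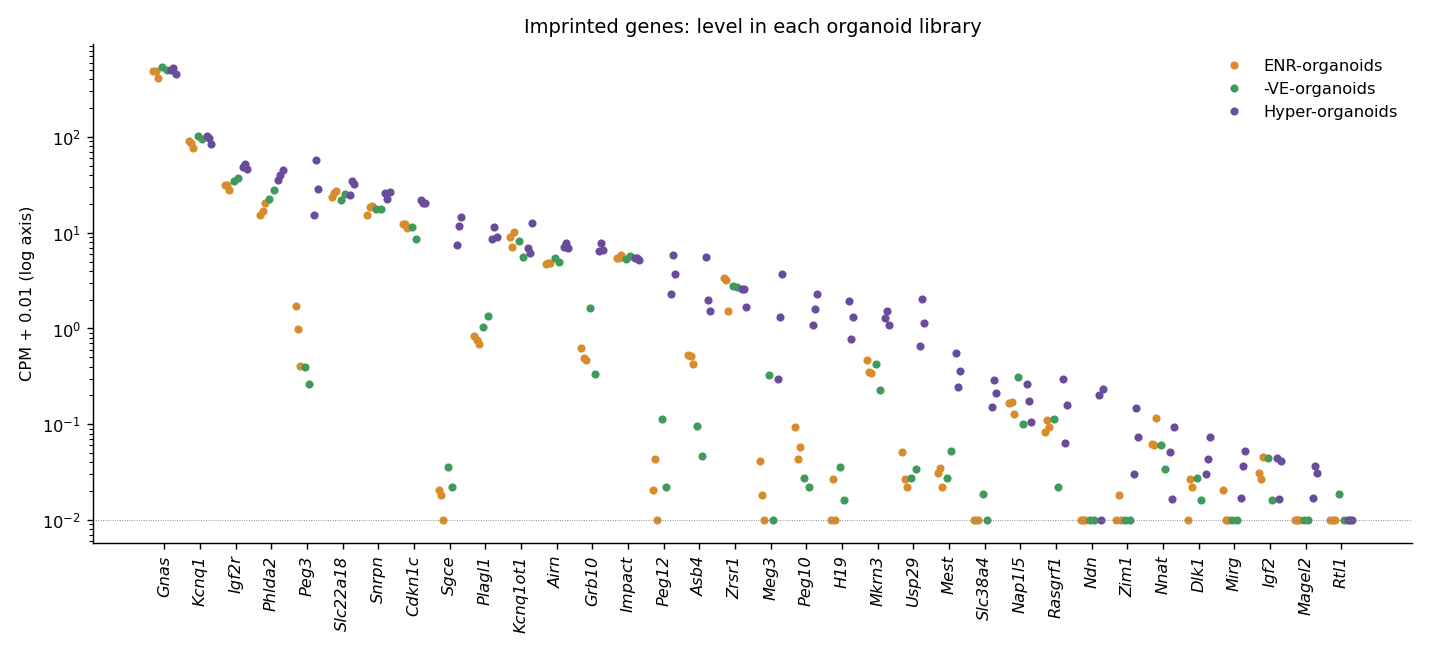
CPM plus 0.01 (log axis) of the 34 imprinted genes in each organoid library, ordered by their mean in Hyper-organoids, with 1 point per library. Genes such as Sgce and Peg12 lie at or near the lower line in ENR- and -VE-organoids and far above it in all 3 Hyper libraries. For Gnas, Kcnq1 and Impact the Hyper libraries overlap those of each other medium.

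**Figure D2:**
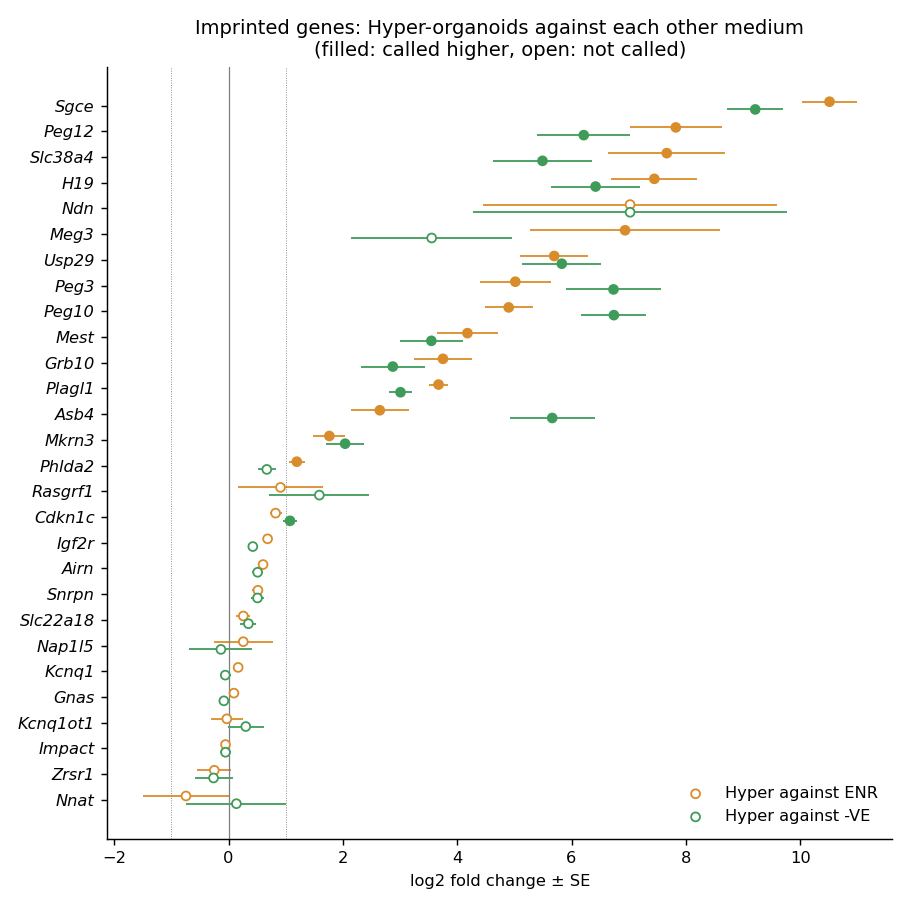
Log2 fold changes with standard errors of the 28 tested imprinted genes, Hyper-organoids against ENR-organoids (orange) and against -VE-organoids (green), filled where called higher. In these 2 comparisons 14 and 13 genes are filled, and 0 genes were called lower.

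Peg3 and Usp29 of the Peg3 domain rose in Hyper-organoids. Peg3 encodes a zinc finger protein that binds DNA and Usp29 a deubiquitinase, and their start sites lie 147 bases apart on opposite strands of chromosome 7. Peg3 was at 15.2, 56.9 and 28.4 CPM in Hyper-organoids, at 1.71, 0.97 and 0.39 CPM in ENR-organoids and at 0.39 and 0.26 CPM in -VE-organoids. No Hyper library overlapped another medium, although the highest Hyper library (replicate 2) was far above the other 2. The log2 fold change was 5.02 ± 0.62 (SE) against ENR- (adjusted p = 0.00024) and 6.73 ± 0.83 against -VE-organoids (adjusted p = 0.000471). Without Hyper replicate 2 these were 4.40 and 6.11. Usp29 had 4, 2 and 1 UMIs in ENR-, 2 and 4 in -VE-, and 95, 302 and 108 UMIs in Hyper-organoids. Its log2 fold changes were 5.70 ± 0.60 (6.33 without ENR replicate 1) and 5.83 ± 0.69, and its Hyper libraries stood in the same order as those of Peg3. In single Hyper cells 387 of the 441 cells with a Usp29 UMI also held Peg3. Of the cells with Peg3 9.39% held Usp29, and of those without it 1.29%, at median depths of 44453 and 41642 UMIs. Zim1, a zinc finger gene beside Peg3, was too low for the test, with 1 UMI over the ENR-, 0 over the -VE- and 3, 21 and 6 UMIs in the Hyper-organoid libraries.

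The Peg3 promoter is shown because a single window holds the starts of both genes that rose, Peg12 as another gene that rose from near 0, Meg3 for a rise held by few cells, and Nap1l5 for a gene whose libraries overlapped. Each is 300 bases, 250 before and 50 after a RefSeq start, 5′ to 3′ on the strand of the gene, from RefSeq's GRCm38.p6 annotation. Capitals mark TGCCGC or its reverse complement GCGGCA, the motif of ZFP57, a zinc finger protein that keeps germ line imprints, searched on both strands.
Peg3, chr7:6730370-6730669, minus strand: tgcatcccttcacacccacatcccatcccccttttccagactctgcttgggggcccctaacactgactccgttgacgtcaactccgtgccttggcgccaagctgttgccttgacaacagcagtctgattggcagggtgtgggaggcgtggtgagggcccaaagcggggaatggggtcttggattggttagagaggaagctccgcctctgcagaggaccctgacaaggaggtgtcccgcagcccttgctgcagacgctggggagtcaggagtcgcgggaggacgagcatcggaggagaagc
Peg12, chr7:62464461-62464760, minus strand: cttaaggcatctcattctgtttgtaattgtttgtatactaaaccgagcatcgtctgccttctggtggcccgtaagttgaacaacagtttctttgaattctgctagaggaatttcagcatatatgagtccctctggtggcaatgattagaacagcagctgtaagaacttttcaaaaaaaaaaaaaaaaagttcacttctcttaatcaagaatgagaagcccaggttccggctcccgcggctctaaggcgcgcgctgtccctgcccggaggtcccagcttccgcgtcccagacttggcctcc
Meg3, chr12:109540746-109541045, plus strand: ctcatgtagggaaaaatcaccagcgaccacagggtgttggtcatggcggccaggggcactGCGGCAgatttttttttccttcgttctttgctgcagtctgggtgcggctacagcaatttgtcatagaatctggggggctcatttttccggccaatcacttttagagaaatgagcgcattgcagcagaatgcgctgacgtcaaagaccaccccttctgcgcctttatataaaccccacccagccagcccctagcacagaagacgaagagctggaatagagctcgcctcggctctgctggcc
Nap1l5, chr6:58907077-58907376, minus strand: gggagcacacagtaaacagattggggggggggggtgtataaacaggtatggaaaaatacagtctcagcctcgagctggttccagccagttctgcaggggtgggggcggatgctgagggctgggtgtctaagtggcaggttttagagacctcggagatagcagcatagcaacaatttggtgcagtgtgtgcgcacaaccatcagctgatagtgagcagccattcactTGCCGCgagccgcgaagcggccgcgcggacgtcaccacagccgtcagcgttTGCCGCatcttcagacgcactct
Among the 28 imprinted genes with such a window, 6 held the motif (Meg3, Zim1, Plagl1, Grb10, Nnat and Nap1l5), beside 11.6% of all 32851 windows. Meg3, Plagl1 and Grb10 rose in Hyper-organoids, Nnat and Nap1l5 were not called and Zim1 was not tested. A match is a description and not a binding site. The windows of the imprinted genes held a median of 11.5 CpG, beside 7 for all windows. For Plagl1, Mest, Mirg, Ndn and Grb10 the start of the nearest window lay 30328, 9959, 5217, 1708 and 1263 bases from that of the gene annotation, for Phlda2 626 and for Rasgrf1 133 bases, and for the others in the gene table at most 53.

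At the Peg10-Sgce domain of chromosome 6 the starts of Sgce and Peg10 lie 99 bases apart on opposite strands. Sgce encodes a sarcoglycan of the membrane and was the tested imprinted gene with the largest fitted change against ENR-organoids. Its UMIs numbered 1, 1 and 0 in ENR-, 3 and 2 in -VE-, and 1105, 1755 and 1382 in Hyper-organoids, that is 7.50, 11.6 and 14.6 CPM. The ratio of Hyper to ENR levels was 1620, with a counting interval of 448 to 13380 that covers counting error only. Against -VE-organoids the log2 fold change was 9.21 ± 0.49 (adjusted p = 1.37e-05). Peg10, derived from a retrotransposon and needed for the placenta, had 8, 4 and 4 UMIs in ENR-, 2 and 2 in -VE- and 160, 239 and 214 UMIs in Hyper-organoids, with log2 fold changes of 4.90 ± 0.42 and 6.74 ± 0.57. Asb4, a subunit of ubiquitin ligases whose start lies 636080 bases from that of Peg10, had 50, 60 and 35 UMIs in ENR-, 10 and 6 in -VE-, and 814, 299 and 142 UMIs in Hyper-organoids. It rose against ENR- (2.65 ± 0.51, adjusted p = 0.0025) and -VE-organoids (5.66 ± 0.74). Without Hyper replicate 1 these were 1.86 and 4.88, and without -VE replicate 1 the latter was 6.33. Asb4 was the single one of the 28 tested genes that fell in -VE- against ENR-organoids (-3.02 ± 0.72, adjusted p = 0.0433). That fall lost its call without any 1 of the 3 ENR libraries or of the 2 -VE libraries, with adjusted p-values of up to 0.276, while its size lay between -2.48 (without -VE replicate 2) and -3.68 (without -VE replicate 1).

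At the Igf2-H19 locus of chromosome 7 the noncoding RNA rose and the growth factor gene was too low for the test. H19 had 0, 2 and 0 UMIs in ENR-, 3 and 1 in -VE-, and 281, 115 and 125 UMIs in Hyper-organoids. The ratio of Hyper to ENR levels was 199, with a counting interval of 54.8 to 1647. Both ENR UMIs lay in replicate 2, and without that library the fitted log2 fold change went from 7.45 to 10.34, a value that depends on the prior count with all ENR libraries at 0 and is no bound. The log2 fold change against -VE-organoids was 6.42 ± 0.77 (adjusted p = 0.000433), with 7.56 without -VE replicate 1 and 5.65 without -VE replicate 2. Igf2, which encodes a fetal growth factor and starts 88673 bases from H19, had 2, 2 and 3 UMIs in ENR-, 4 and 1 in -VE-, and 5, 1 and 3 UMIs in Hyper-organoids, and no change was detectable at this depth. The H19 UMIs of the Hyper-organoids lay in 181 of 8318 cells, of which 100 were transit amplifying (TA), 64 stem and 16 goblet cells. Of all H19 UMIs 31.7% lay in 10 cells, and the highest cell held 42. In the 290 enteroendocrine cells H19 was at 0, beside 1.84% of stem cells with a UMI, at median depths of 21570.5 and 37634 UMIs. Of the H19-holding cells 6.08% held a stromal marker UMI, beside 4.88% of the other Hyper cells, and all held Epcam.

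At the Dlk1-Meg3 domain of chromosome 12 Meg3, a maternally expressed noncoding RNA, was high in very few cells. Its UMIs numbered 3, 1 and 0 in ENR-, 37 and 0 in -VE-, and 42, 199 and 352 in Hyper-organoids. The Hyper and ENR libraries did not overlap (log2 fold change 6.94 ± 1.66, adjusted p = 0.00748, with 8.23 without ENR replicate 1 and 5.82 without Hyper replicate 3), whereas -VE replicate 1 lay at 0.32 CPM beside 0.29 CPM in Hyper replicate 1, and the difference from -VE-organoids was not called (3.55 ± 1.41, adjusted p = 0.0695). In Hyper-organoids 593 Meg3 UMIs lay in 32 of 8318 cells, and 10 of these cells held 84.0% of them. Enteroendocrine cells made up 23 of the 32 and held 97.6% of the UMIs, with up to 115 UMIs in a cell. Such cells were present in each Hyper library: 5 of 97, 6 of 107 and 12 of 86 enteroendocrine cells held Meg3. In ENR-organoids 0 of 212 and in -VE-organoids 1 of 162 did, and that 1 cell held all 37 Meg3 UMIs of its library. Within enteroendocrine cells Meg3 rose against ENR-organoids (adjusted p = 0.0155), and without ENR replicate 1 the adjusted p was 0.0543. Meg3 had 0 UMIs in these cells of ENR-organoids, so once past the filter it had to lie above them. The difference from -VE-organoids in these cells was not called (3.17 ± 1.10, log2, adjusted p = 0.142). Mirg, a noncoding RNA of the same domain, had 9 UMIs over the Hyper libraries, 1 over the ENR and 0 over the -VE libraries, and all 7 Hyper cells with Mirg also held Meg3. The paternally expressed Dlk1, a ligand-like membrane protein, had 14 UMIs over the Hyper libraries and 3 each over the ENR and the -VE libraries, and 2 of its 11 Hyper cells held Meg3. Rtl1, a gene of retrotransposon origin, had 0, 1 and 0 UMIs in the 3 media.

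**Figure D3:**
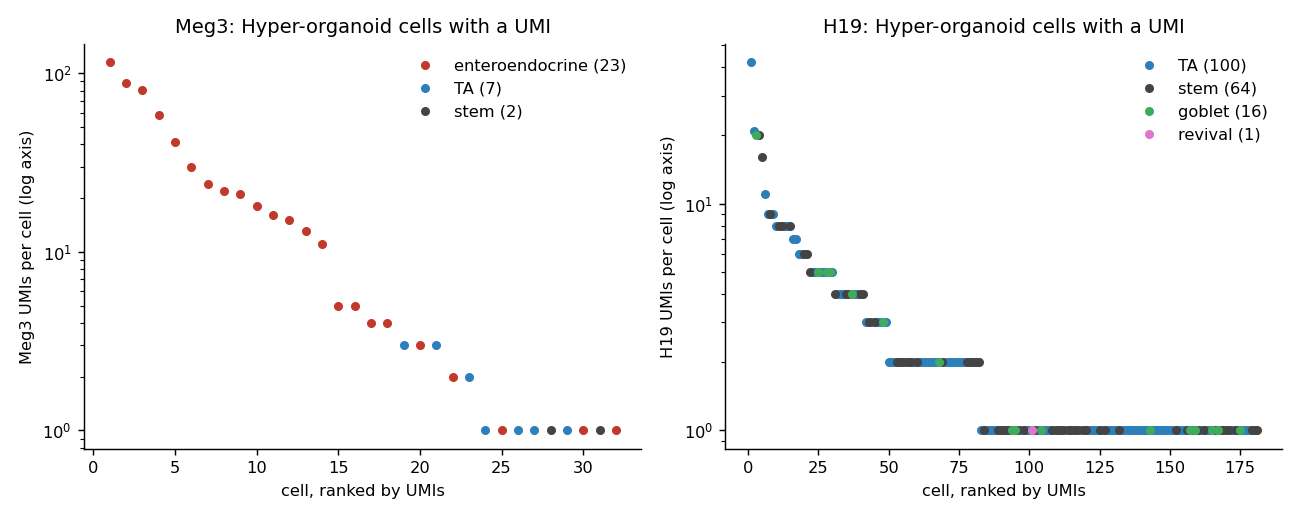
UMIs per cell (log axis) of Meg3 (left) and H19 (right) in the Hyper-organoid cells that hold them, ranked and coloured by cell class, with the number of cells in the legend. The cells with most Meg3 are enteroendocrine, up to 115 UMIs, while H19 is spread over TA, stem and goblet cells, up to 42 UMIs.

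At the Kcnq1 domain of chromosome 7 the changes were small over whole libraries. Cdkn1c, an inhibitor of cyclin-dependent kinases that restrains proliferation, was at 12.4, 12.2 and 11.1 CPM in ENR-, 11.4 and 8.64 in -VE-, and 22.2, 20.5 and 20.5 CPM in Hyper-organoids. The Hyper libraries lay above all others, and the log2 fold change was 0.82 ± 0.10 against ENR- (under 2-fold, adjusted p = 0.00028) and 1.07 ± 0.12 against -VE-organoids (adjusted p = 0.000296). Without -VE replicate 2 the latter was 0.90, under 2-fold, and with cells thinned to 10000 UMIs it was 0.42 (adjusted p = 0.0661). With thinned cells the difference from ENR-organoids was 0.08 (adjusted p = 0.67). Phlda2, which limits growth of the placenta, was at 15.2, 17.0 and 20.7 CPM in ENR-, 22.4 and 28.2 in -VE-, and 35.6, 40.4 and 44.8 CPM in Hyper-organoids. It rose 1.19 ± 0.14 on the log2 scale against ENR-organoids (adjusted p = 0.000189) and differed by 0.67 ± 0.16 from -VE-organoids, under 2-fold. Kcnq1, a potassium channel, was at 90.7, 85.6 and 76.4 CPM in ENR- and 102 and 95.02 in -VE-organoids. In Hyper-organoids it was at 103, 97.0 and 84.2 CPM. Its Hyper libraries overlapped both other media, and it was not called. Kcnq1ot1, the noncoding RNA transcribed from the opposite strand within Kcnq1, was at 8.72 ± 1.47 (SD, n = 3), 6.93 ± 1.84 (n = 2) and 8.55 ± 3.55 CPM (n = 3) in the same order and was not called either. Slc22a18, an organic cation transporter, was at 23.4, 25.9 and 27.0 CPM in ENR-, 22.2 and 25.6 in -VE-, and 24.7, 34.5 and 32.1 CPM in Hyper-organoids, and these overlapped. Within stem and TA cells Slc22a18 passed the test against ENR-organoids at under 2-fold (0.75 ± 0.14 and 0.67 ± 0.11, log2). Within goblet and enteroendocrine cells it did not pass.

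In the Prader-Willi region of chromosome 7, 2 of 4 tested genes were called higher against each of the other media, beside 18.2% (against ENR-) and 16.1% (against -VE-organoids) of all genes. Peg12, an intronless gene related to an inhibitor of the kinase GSK3, had 1, 4 and 0 UMIs in ENR-, 12 and 2 in -VE-, and 339, 886 and 350 in Hyper-organoids. Its log2 fold change was 7.82 ± 0.80 against ENR- (adjusted p = 9.41e-05) and 6.21 ± 0.81 against -VE-organoids. It was 9.24 against ENR-organoids without ENR replicate 2, and against -VE-organoids 8.24 without -VE replicate 1 and 5.27 without -VE replicate 2. Mkrn3, a ubiquitin ligase that delays puberty, was at 0.46, 0.34 and 0.33 CPM in ENR-, 0.41 and 0.22 in -VE-, and 1.26, 1.51 and 1.08 CPM in Hyper-organoids (1.76 ± 0.28 and 2.04 ± 0.33, log2). Ndn, a growth suppressor of neurons, had 28, 0 and 21 UMIs in Hyper-organoids and 0 in every other organoid library, and was not called (adjusted p = 0.0664 and 0.0908). With the culture series as a replicate block it was called against both (adjusted p = 0.0108 and 0.0274), as it was without Hyper replicate 2 (adjusted p = 0.00323 and 0.00579). DESeq2 (adjusted p = 0.0382) and the fit with no filter on low counts (adjusted p = 0.0331) called it against ENR-organoids. Over the groups this is at least 12.5-fold higher than in ENR-organoids, counting 3 UMIs as the floor of the ENR group. Magel2 had 1, 4 and 2 UMIs in Hyper-organoids and 0 elsewhere. Snrpn, a splicing protein gene, was at 15.3, 18.5 and 18.9 CPM in ENR-, 17.6 and 17.8 in -VE-, and 26.1, 22.7 and 26.6 CPM in Hyper-organoids, a difference under 2-fold that passed the test against both (0.51 ± 0.10 and 0.51 ± 0.11, log2).

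Among genes outside these domains Plagl1, Grb10, Mest and Slc38a4 rose. Plagl1, a zinc finger transcription factor that regulates other imprinted genes, was at 0.83, 0.75 and 0.68 CPM in ENR-, 1.04 and 1.35 in -VE-, and 8.65, 11.3 and 8.91 CPM in Hyper-organoids (3.67 ± 0.17 and 3.01 ± 0.19, log2). Grb10, an adaptor that dampens insulin and IGF1 receptor signals, was at 0.61, 0.48 and 0.45 CPM in ENR-, 1.61 and 0.32 in -VE-, and 6.43, 7.89 and 6.57 CPM in Hyper-organoids (3.75 ± 0.51 and 2.87 ± 0.56, log2). The -VE libraries lay apart from each other, and the difference from -VE-organoids was 4.44 without -VE replicate 1 and 2.13 without -VE replicate 2. Mest, a hydrolase of mesoderm, had 2, 3 and 1 UMIs in ENR-, 2 and 7 in -VE-, and 81, 35 and 33 UMIs in Hyper-organoids. Slc38a4, an amino acid transporter, had 0 UMIs in ENR-, 1 and 0 in -VE-, and 21, 42 and 19 UMIs in Hyper-organoids, at least 20.9-fold higher than in ENR-organoids by the same floor. These 4 genes were called against both other media. Gnas, the stimulatory G protein subunit, was at 488, 485 and 413 CPM in ENR- and 543 and 500 in -VE-organoids. In Hyper-organoids it was at 495, 526 and 457 CPM, and these libraries overlapped both other media. Igf2r, the receptor that clears IGF2, was at 48.7, 51.7 and 46.3 CPM in Hyper-, 31.7, 31.4 and 28.3 in ENR- and 35.1 and 37.8 CPM in -VE-organoids. The difference passed the test at under 2-fold (0.68 ± 0.07 and 0.42 ± 0.07, log2). Airn, the noncoding RNA that overlaps Igf2r on the opposite strand, differed by 0.60 ± 0.09 and 0.51 ± 0.10. Whether counting used the strand is not given in the sources used here, so reads of Airn and Igf2r, or of Kcnq1ot1 and Kcnq1, may not be told apart. Impact, Zrsr1, Nnat, Nap1l5 and Rasgrf1 were not called in any of the 3 comparisons, and Impact was at 5.56 ± 0.23 CPM in ENR- and 5.35 ± 0.15 (SD, n = 3 each) in Hyper-organoids.

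The rise was then compared between cell classes, taken from the annotation the authors deposited. In each library the UMIs of a class were summed, and CPM are here relative to all UMIs of that class in the library. Stem, TA, goblet and enteroendocrine cells were tested, and the enterocyte, enterocyte progenitor, Paneth, revival stem and tuft classes were not. In TA cells 14 of 25 tested imprinted genes rose against ENR-organoids (17.2% of all genes called higher) and 13 of 25 against -VE-organoids (15.5%). In stem cells it was 11 of 22 (15.2%) and 12 of 22 (14.7%), and in goblet cells 9 of 18 (10.7%) and 8 of 18 (8.72%). In enteroendocrine cells 4 of 17 rose against ENR- (5.96%) and 3 of 17 against -VE-organoids (3.52%), and 1 of 17 fell in each comparison, Cdkn1c, beside 1.44% and 0.489% of all genes called lower. Against ENR-organoids Sgce and Plagl1 were called higher in all 4 tested classes. H19, Cdkn1c, Peg3, Usp29, Peg10, Grb10, Peg12 and Phlda2 were called higher in 3 classes, and the remaining class was goblet for Peg10 and enteroendocrine for the others. Peg10 was too low for the test in goblet cells. In enteroendocrine cells H19, Usp29, Grb10 and Peg12 were too low, Peg3 and Phlda2 were not called, and Cdkn1c fell. Fewer genes could be tested in enteroendocrine cells, of which a library held 61 to 107. The filter was applied in each class, so a gene that passed it only through its Hyper libraries had to differ. In goblet cells of ENR- and -VE-organoids Peg3, Usp29 and Sgce had 0 UMIs, as had Sgce and Slc38a4 in TA cells. The shares within classes therefore describe only the genes that passed.

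Sgce UMIs were found in all 4 tested classes of Hyper-organoids. It was at 8.52, 12.1 and 15.02 CPM in stem, 7.48, 12.4 and 15.4 in TA, 7.87, 14.0 and 15.4 in goblet and 15.1, 22.7 and 29.6 CPM in enteroendocrine cells. In ENR-organoids the same classes held 1, 0, 0 and 1 Sgce UMIs. Plagl1 in Hyper-organoids was at 9.56, 11.6 and 8.88 CPM in stem, 9.30, 12.7 and 10.3 in TA, 7.21, 11.3 and 8.03 in goblet and 5.65, 7.42 and 2.64 CPM in enteroendocrine cells. The Hyper libraries lay above all ENR libraries in each of these classes for both genes. Enterocytes, of which the Hyper libraries held 86, gave lower values there for Sgce (2.35, 4.92 and 2.05 CPM) and Peg3 (0, 4.92 and 1.03 CPM). H19 had 0 UMIs in them, which allows up to 0.782 CPM over the group. In stem cells H19 was at 2.21, 0.732 and 0.662 CPM, so a lower level in enterocytes is not shown. Asb4 was at 0.527, 1.05 and 1.203 CPM in enterocytes of ENR-organoids and had 0 UMIs in those of Hyper-organoids, which allows up to 0.782 CPM over the group.

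Peg3 differed between the classes. In ENR-organoids 25.9% of 212 enteroendocrine cells held a Peg3 UMI, against 0.230% of 868 stem, 0.0724% of 2764 TA and 0 of 379 goblet cells, at median depths of 16235.5, 36865.5, 51352 and 29303 UMIs. Enteroendocrine cells thus held 98.2%, 97.4% and 90.9% of all Peg3 UMIs of the ENR libraries. In Hyper-organoids the share of enteroendocrine cells in the Peg3 UMIs was 13.2%, 3.93% and 10.6%, and a Peg3 UMI was also found in 42.4% of stem, 56.7% of TA and 42.5% of goblet cells. Free RNA can give a UMI in cells that do not express a gene, and enterocytes of the same libraries held Peg3 in 11.6% of 86 cells, at a median depth of 46863 UMIs beside 37634, 51685.5 and 33324 in the other 3 classes. Within enteroendocrine cells Peg3 was at 126, 79.5 and 30.8 CPM in ENR-, 22.2 and 17.3 in -VE-, and 112, 156 and 151 CPM in Hyper-organoids. There it was not called against ENR-organoids (0.89 ± 0.30, log2, adjusted p = 0.0698), whereas without ENR replicate 1, the library at 126 CPM, it was called (1.34, adjusted p = 0.0195). In these cells Peg3 rose against -VE-organoids (2.79 ± 0.39, adjusted p = 0.00247). In stem cells it was at 12.3, 47.6 and 21.3 CPM in Hyper-organoids and had 2 UMIs over the 3 ENR libraries. The enteroendocrine effect against ENR-organoids was lower than that of stem cells by 7.60 ± 0.71 on the log2 scale (adjusted p = 4.28e-06), in a fit of both classes with the library as a block.

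Cdkn1c moved in opposite directions. It was at 524, 576 and 463 CPM in enteroendocrine cells of ENR-organoids, at 448 and 324 in those of -VE-organoids and at 94.9, 97.4 and 143 in those of Hyper-organoids, which did not overlap the others. It fell by 2.15 ± 0.18 on the log2 scale against ENR- (adjusted p = 4.93e-05) and by 1.82 ± 0.19 against -VE-organoids (adjusted p = 0.000506). In the other classes it rose: from 6.82, 6.49 and 5.76 CPM to 24.7, 20.4 and 18.7 in stem cells, from 4.44, 4.95 and 4.94 to 21.1, 20.7 and 20.4 in TA cells, and from 7.96, 9.60 and 6.12 to 20.0, 22.2 and 12.9 in goblet cells. The log2 fold changes there were 1.62 ± 0.15, 2.01 ± 0.08 and 1.10 ± 0.24. The difference of enteroendocrine from stem cells was -3.84 ± 0.20 (adjusted p = 1.27e-08) and from TA cells -4.18 ± 0.18. In this fit 4 of 23 imprinted genes differed between enteroendocrine and stem cells and 3 of 27 between enteroendocrine and TA cells, beside 10.9% and 13% of all genes. The share of all Cdkn1c UMIs held by enteroendocrine cells was 48.5 to 56.4% in ENR-, 46.2 and 57.6% in -VE- and 6.79 to 13.9% in Hyper-organoids. Without enteroendocrine cells Cdkn1c rose by 1.80 on the log2 scale against ENR-organoids, past the 2-fold limit that it missed over all cells.

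Values of other enteroendocrine genes stand beside this fall, in which the part of class composition was not tested. Neurog3, the transcription factor of enteroendocrine progenitors, was at 464, 537 and 784 CPM in ENR-, 707 and 657 in -VE- and 933, 1078 and 1009 CPM in Hyper-organoids of this class. Its UMIs were in 54.2 to 62.3%, 64.4 and 70.8%, and 57.0 to 72.2% of the cells. Chga, of mature enteroendocrine cells, was at 1630 to 2109 CPM in ENR-, 774 and 867 in -VE- and 657 to 2248 CPM in Hyper-organoids. Chgb, a granin of these cells, was at 20472, 12862 and 15324 CPM in ENR-, 10863 and 10074 in -VE- and 5430, 14117 and 10909 CPM in Hyper-organoids. The hormone gene Cck had 19574, 12971 and 8229 UMIs in the whole ENR, 17229 and 12291 in the whole -VE and 1771, 9378 and 3130 UMIs in the whole Hyper libraries. The class was also divided by Neurog3, a division chosen after seeing the data. In cells with a Neurog3 UMI Cdkn1c was at 405, 526 and 345 CPM in ENR-, 294 and 278 in -VE- and 86.9, 80.9 and 132 CPM in Hyper-organoids. In cells without one it was at 676, 650 and 711 CPM in ENR-, 740 and 417 in -VE- and 120, 126 and 159 CPM in Hyper-organoids. The log2 ratio of the Hyper to the ENR mean was -2.09 with and -2.33 without a Neurog3 UMI.

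**Figure D4:**
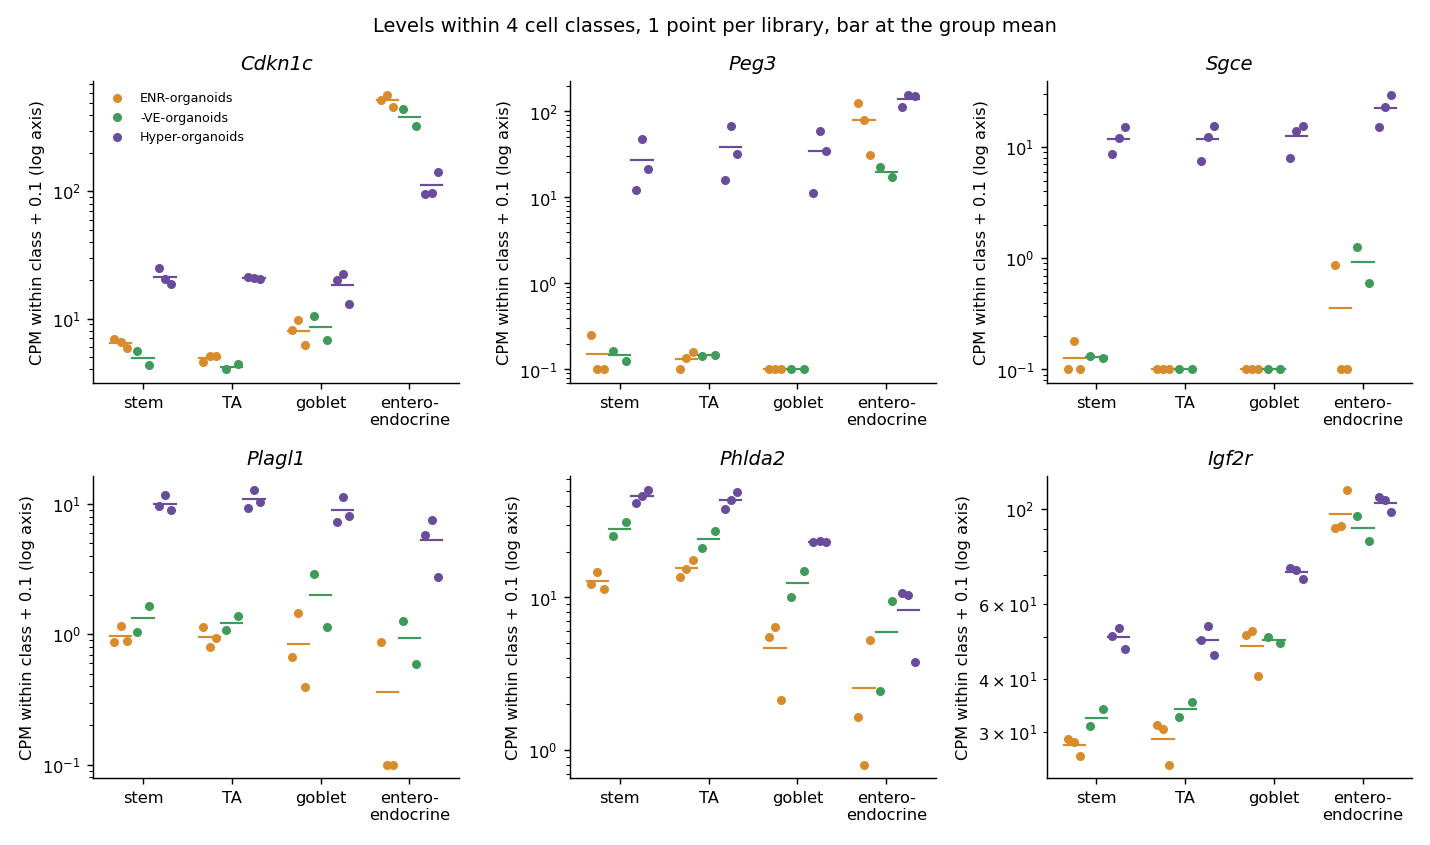
CPM within stem, TA, goblet and enteroendocrine cells plus 0.1 (log axis), with 1 point per library and a bar at the group mean, for 6 imprinted genes. Cdkn1c falls in enteroendocrine cells of Hyper-organoids and rises in the other 3 classes, Peg3 is present in enteroendocrine cells of all media, and Sgce is near 0 outside Hyper-organoids.

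The share of cells with a UMI was compared after each cell had been thinned to 10000 UMIs, which left 1870 to 4013 cells per library. For 24 of the 34 genes every Hyper library lay above every ENR library, beside 29.2% of all genes with a UMI. The exact two-sided permutation test of 3 against 3 libraries cannot give a p under 0.1, and these 24 genes had this p (0.142 after Benjamini-Hochberg adjustment over the 34 genes). Peg3 was found in 12.1, 36.9 and 21.6% of thinned Hyper cells and 0.999, 0.518 and 0.271% of ENR cells. Sgce was found in 7.24, 11.5 and 13.9% against 0 of 2002, 2508 and 2214 ENR cells, which allows a share of up to 0.150% of cells with a UMI at this depth and sets no limit on cells that express the gene. Unthinned, Sgce UMIs were in 27.0, 33.8 and 44.8% of the Hyper and in 0.0457, 0.0384 and 0% of the ENR cells. Cdkn1c was found in 18.8, 17.1 and 16.9% against 7.74, 6.82 and 6.55%. Plagl1 was found in 8.51, 11.4 and 9.57% against 0.749, 0.758 and 0.497%, and Grb10 in 6.33, 7.26 and 5.29% against 0.799, 0.439 and 0.361%. Gnas was found in over 96% of cells of every library. When at least 2 UMIs were asked for, 13 of the 34 genes were without overlap, beside 15.4% of all genes.

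**Figure D5:**
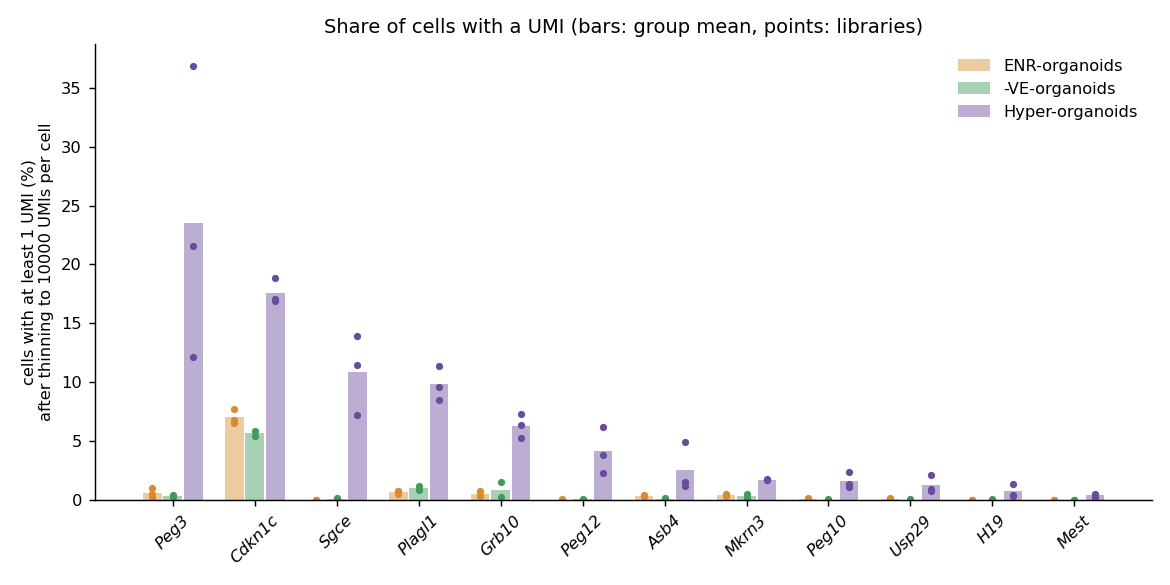
Percentage of cells with at least 1 UMI after thinning to 10000 UMIs per cell for 12 imprinted genes, with bars at the group mean and points for libraries. Peg3 reaches 36.9% in the highest Hyper library, and Sgce and Plagl1 reach 13.9% and 11.4%, above all ENR and -VE libraries.

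Genes next to the imprinted genes were counted in the same fit. Some of these neighbours, among them Ascl2, Cd81, Ddc and Slc22a3, also belong to the list of further imprinted genes below. Of 69 other tested genes that start within 250 kb of an imprinted gene 6 rose and 2 fell in Hyper- against ENR-organoids, that is 8.70% higher beside 18.2% of all genes tested, with a median log2 fold change of 0.05. Next to genes that were themselves called, 5 of 28 neighbours (17.9%) rose, near the 18.2% of all genes tested. Among them were Tnfrsf22 beside Phlda2 (2.64), Pdk4 beside Asb4 (1.86), Pced1b beside Slc38a4 (1.45) and Stx11 beside Plagl1 (2.53, log2). Slc22a3 near Airn (1.97), itself imprinted in the placenta, rose as well.

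Genes that work with the imprinted genes were then examined in lists set with earlier results known. A list of 17 genes held genes that maintain imprints and also Tet1, Tet2 and Tet3, which oxidise methylcytosine. Of these 17 genes 14 were tested, and 2 were called higher against both media with 0 called lower. Of all genes, 14.3% were called higher in both comparisons, 18.2% against ENR- and 16.1% against -VE-organoids. Zfp57, whose protein protects imprints and whose motif is marked above, was at 0.0373 ± 0.0235 CPM (SD, n = 3) in ENR- and 1.51 ± 0.23 in Hyper-organoids (log2 fold change 5.23 ± 0.38). Tet1, a dioxygenase that oxidises methylcytosine, rose from 1.05 ± 0.12 to 6.27 ± 1.2 CPM (2.57 ± 0.18). The median of that list was -0.19 against ENR-organoids, and the other genes tested were not called. Some passed the test at under 2-fold against both media. Of these Ctcf (-0.43 ± 0.04 and -0.32 ± 0.04, log2), Zfp445 (-0.37 ± 0.05 and -0.28 ± 0.06), Tet3, Hells and Setdb1 were lower in Hyper-organoids. Dnmt3b was higher (0.65 ± 0.08 and 0.53 ± 0.09). Of 43 further genes reported as imprinted 41 were in the gene table and 30 were tested. Of these 6 rose against both media, beside the same 14.3% of all genes, and the median of the list was 0.10 against ENR-organoids. Sfmbt2, a Polycomb protein, was at 0 in ENR- and 3.54 ± 2.6 CPM in Hyper-organoids, and Atp10a at 0.00557 ± 0.00964 and 0.887 ± 0.796 CPM. Htr2a, also called, was at 0 in ENR-organoids like Sfmbt2. Once past the filter on low counts, these 2 genes had to lie above the ENR libraries. Cobl was called lower in -VE- than in ENR-organoids.

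In the IGF axis 12 of 15 tested genes rose against ENR- and 11 of 15 against -VE-organoids, with medians of 4.96 and 3.82 on the log2 scale, beside 18.2% and 16.1% of all genes called higher. Lin28a was at 0 CPM in ENR- and -VE-organoids, so once past the filter on low counts it had to lie above them. Igfbp1, Igf2bp1, Igfbp5 and Igfbp7 were at 0.012 to 0.044 CPM in ENR-organoids. These counts therefore describe only the genes that passed the filter. In -VE- against ENR-organoids 1 was higher and 1 lower, beside 2.55% of all genes called in either direction. The receptor Igf1r rose from 15.7 ± 2.0 to 48.2 ± 8.4 CPM (SD, n = 3 each), 1.61 ± 0.20 on the log2 scale. Its adaptor Irs1 rose by 3.67 ± 0.27. Among IGF binding proteins Igfbp1, Igfbp2, Igfbp3, Igfbp4, Igfbp5 and Igfbp7 rose against ENR-organoids, and Igfbp4 reached 275 ± 39.1 CPM from 33.8 ± 9.1. Igfbp4 was also higher in -VE- than in ENR-organoids (2.22 ± 0.24) and was not called between Hyper- and -VE-organoids. The mRNA-binding proteins Igf2bp1 and Igf2bp3 and the RNA-binding proteins Lin28a and Lin28b, which are typical of fetal tissues, rose as well, with Igf2bp3 from 12.2 ± 3.97 to 51.3 ± 12.99 CPM and Lin28b from 0.0951 ± 0.0126 to 8.81 ± 3.77 CPM. Igf2bp3 was lower in -VE- than in ENR-organoids (-1.24 ± 0.30). Of 5 partners of the imprinted gene network Plag1 rose against both media (3.35 ± 0.40 and 3.35 ± 0.46), beside 14.3% of all genes called higher in both. Hmga2 and Cdkn1a were called against -VE-organoids (1.00 ± 0.12 and 1.06 ± 0.21) and passed the test at under 2-fold against ENR-organoids (0.98 ± 0.10 and 0.66 ± 0.18, log2).

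In colonic crypts the libraries have no replicates, and no test was made. Of the 34 genes 16 reached 1 CPM in at least 1 of the 2 libraries. With a pseudocount of 1 CPM, 1 of these differed by at least 2-fold, beside 5.08% of all genes. This was Zrsr1, a splicing factor gene, at 4.17 CPM (exact Poisson 95% interval 3.32 to 5.17) in normal and 9.66 CPM (8.62 to 10.8) in DSS crypts. The 6 leukocyte markers summed to 138 CPM in the normal and 297 CPM in the DSS library and the 8 stromal markers to 5.73 and 43.8 CPM, and their part in this difference was not tested. In the DSS library Sgce had 5, Peg10 0, Peg12 0, H19 2 and Mest 3 UMIs. Peg3 was at 1.81 CPM (1.27 to 2.50) in normal and 1.23 CPM (0.882 to 1.68) in DSS crypts. Plagl1 was at 1.26 CPM (0.813 to 1.85) in normal and 0.463 CPM (0.259 to 0.764) in DSS crypts, and these intervals did not overlap. Its log2 ratio was -0.62 with the pseudocount of 1 CPM, which is close to the level of the gene. Cdkn1c was at 10.6 and 14.8 CPM and Slc22a18 at 109 and 94.8 CPM. Meg3 was at 16.0 CPM (14.3 to 17.8) and 12.8 CPM (11.6 to 14.1). As in the Hyper-organoids, few cells held it: cluster 5 of the deposited annotation held 71.4% and 72.0% of the Meg3 UMIs in 8 of 83 and 11 of 150 cells, with up to 103 UMIs in a cell. Cluster 5 held 3432 and 7240 Epcam UMIs, 0 Col3a1 UMIs and 1 and 6 Chga UMIs. The cells of this cluster also held 7 of 8 and 6 of 7 Mirg UMIs. In the normal library cluster 19 held a further 22.3%. In the DSS library cluster 16, with 4305 Chga UMIs, held 2 Meg3 UMIs (0.483%). This differs from the Hyper-organoids, where enteroendocrine cells held 97.6% of the Meg3 UMIs. Cluster 18, with 48 and 666 Col3a1 UMIs, held 6.29% and 21.3% of the Meg3 UMIs and all UMIs of Ndn.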

How the data were processed

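Counts of UMIs per gene and barcode were deposited by the authors, not normalized, from Cell Ranger (3.0.0 in the submitters' processing notes, 3.1.0 in the file headers) on mm10. The authors' deposited annotation gave the kept cells and their classes, and the kept cells had at least 501 genes. The methods name Seurat 3.1.4 and a filter of 1500 genes and 25% mitochondrial reads. The deposited filtered count table was not used. The number of unmapped columns was 0. Doublets were left in and no caller was run.

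UMIs were summed per library, and one edgeR 4.0.16 fit held all 8 organoid libraries (R 4.3.3; TMM, filterByExpr, quasi-likelihood test). Every adjusted p of a single gene is from this test with Benjamini-Hochberg adjustment over all genes tested, and a gene was called at an adjusted p under 0.05 and at least 2-fold. Standard errors are those implied by the test. CPM of genes over whole organoid libraries use TMM library sizes, and those of classes, colon and summed markers plain totals. The fit was tested on simulated data. Thinning, counting intervals and permutation tests used Python 3.11.15, numpy 2.4.6 and scipy 1.17.1, and DESeq2 1.42.0 was an alternative. The log2 ratios of the colonic libraries used a pseudocount of 1 CPM.

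Libraries of ENR- and Hyper-organoids that share a series deviated together from their group means over 16037 genes. The correlations were 0.192, 0.170 and 0.436 for series 2, 6 and C, beside at most 0.0619, 0.129 and -0.179 with another series. Replicate numbers, taken from the first character of the codes in the labels, therefore pair the libraries.

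The imprinted genes, the lists and the tests were chosen with earlier results of these data known. Values per library were given for genes called against ENR- or -VE-organoids and for those of at least 20 CPM in a medium; the single cells with Meg3 or H19, the split by Neurog3 and the class interaction were chosen after the data had been seen. One neighbouring gene is not reported here. Gene positions are from GENCODE M21 (GRCm38). RefSeq's promoter table has 28 of the 35 genes; Cdkn1c, H19, Impact, Kcnq1, Peg10, Rtl1 and Sgce were not matched.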

Additional observations from a re-analysis of the deposited data

Results flagged for a closer look

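The effect of the Hyper medium against ENR-organoids differed between enteroendocrine and stem cells for 4 of 23 imprinted genes, beside 10.9% of all genes. The difference itself was tested (edgeR, both classes in the same fit with the library as a block). The difference on the log2 scale was -3.84 for Cdkn1c (adjusted p = 1.27e-08), -7.60 for Peg3 (adjusted p = 4.28e-06), -6.34 for Nap1l5 (adjusted p = 0.0417) and -0.60 for Igf2r (adjusted p = 0.0232). Cdkn1c lay lower in enteroendocrine cells of 3 of 3 Hyper libraries and higher in stem cells of 3 of 3. Nap1l5 had 20 UMIs in enteroendocrine and 0 in stem cells of ENR-organoids, and 13 and 31 UMIs in Hyper-organoids, so its value depends on few molecules. Igf2r was at 97.5 CPM in ENR- and 103 CPM in Hyper-organoids in enteroendocrine cells, beside 27.8 and 49.9 CPM in stem cells. With TA cells in place of stem cells, chosen after seeing the data, Cdkn1c and Peg3 remained and Usp29 passed (-4.05, adjusted p = 0.0374). That is 3 of 27 imprinted genes, beside 13% of all genes. Usp29 had 5 UMIs in enteroendocrine and 2 in TA cells of ENR-organoids, and 32 and 281 UMIs in Hyper-organoids. Its value also depends on few molecules.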

How the results depend on the processing

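Each count of called genes was recomputed under the alternatives fixed at the start. The counts against ENR- (14) and -VE-organoids (13) ranged from 11 to 16 and from 11 to 15, and from 14 to 15 and 12 to 15 without 1 library. With the culture series as a replicate block, since the numbers pair the libraries, they were 15 and 14, with Ndn added in both over all cells and in TA cells, Mkrn3 was added against ENR-organoids in stem cells, no other call changed, and the block moved no count by over 1.5 times. The single call in -VE- against ENR-organoids was lost with cells thinned to 10000 UMIs (0 genes), and ranged from 0 to 1 without 1 library. In place of Asb4 the 1 call was Phlda2 in stem cells alone and Grb10 without -VE replicate 2. The 8 goblet calls against -VE-organoids ranged from 5 to 9, with 5 without -VE replicate 2. The 5 enteroendocrine calls against ENR-organoids ranged from 3 to 5, with 3 without ENR replicate 2, Hyper replicate 2 or Hyper replicate 3, and were 8 with no filter on low counts. In stem cells alone Kcnq1 and Gnas, neither of them called, were at -0.16 and -0.0058 on the log2 scale (adjusted p = 0.12 and 0.962), opposite in sign to all cells, and the calls of Mest and Mkrn3 were lost (adjusted p = 0.0953 and 0.0728), that of Mkrn3 not with the replicate block in these cells (adjusted p = 0.0442). The 24 genes without overlap in cell shares became 13 with at least 2 UMIs (15.4% of all genes), and 24 to 26 without 1 library (31.5 to 34.9% of all genes). The 1 gene past 2-fold in the colon became 2 with a pseudocount of 0.1. Of 729 recomputed single-gene values 704 kept direction and call.

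Each medium has 2 or 3 libraries, whose replicates also differ in passage and origin, and genes of few UMIs were removed by the filter or have wide errors. The colonic libraries have 1 library per group. Intervals cover counting error only.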
